A study of Mus musculus with 71 samples.

Results

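C3H/10T1/2 adipocytes treated with rosiglitazone (RSG) for 4 hrs were compared with C3H/10T1/2 adipocytes given the vehicle, dimethyl sulfoxide (DMSO), for the same 4 hrs. The comparison held 6 of the 71 arrays of the series, 3 with RSG and 3 with DMSO, chosen by the cell line, the agent and the time in their titles and not by any measured value. C3H/10T1/2 is an established mouse line of fibroblast-like cells that can be turned into fat cells in culture. All 6 samples had been differentiated for 6 days in 10 µM RSG and 1 µM insulin and then held for 24 hrs in a washout medium with albumin but no serum. The RSG group then received 1 µM RSG and the DMSO group only the vehicle, so the DMSO cells had also met RSG during differentiation and the comparison is one of renewed exposure. Each sample was a pool of 2 wells, and the 3 replicates came from 3 batches of differentiated cells of this 1 line. Arrays of the same line at other times (1 and 2 hrs, and 7 to 48 hrs) and of 3T3-L1 adipocytes at 4 hrs are used below only to place the 4 hr values. The 3T3-L1 cells had been differentiated by another protocol, with 0.1 µM RSG, insulin at a lower dose, isobutylmethylxanthine and dexamethasone. The same washout and the same 1 µM RSG or DMSO followed.

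RSG is a thiazolidinedione that is a ligand of PPARγ, a nuclear receptor without which fat cells neither form nor keep their functions. PPARγ pairs with the retinoid X receptor on DNA and, once a ligand is bound, exchanges corepressors for coactivators at nearby genes. Genes known to respond to it in fat cells serve fatty acid uptake, the making of glycerol for triglycerides, the coating of lipid droplets, lipolysis and fatty acid oxidation. A few hours of ligand allow changes in mRNA of direct targets and of some genes that follow them, while the content of mitochondria changes over days.

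Signal is the MAS5 intensity of a probe set, a group of short probes for 1 transcript, on a linear scale with the same target for every array. Array medians were 41.2 to 42.9 with RSG and 43.8 to 45.8 with DMSO. A probe set was called present from a signal of 19.9, a level that 95% of the signals of 27 bacterial control probe sets did not reach and that 64% to 65.1% of probe sets reached with RSG and 65.1% to 66.9% with DMSO. The replicates of a group correlated between 0.966 and 0.974, and no array stood apart. A probe set was tested where the RSG or the DMSO mean reached the presence level, 15147 in all.

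The cells carried the marks of fat cells. Adipoq, which encodes adiponectin, gave signals of 6122, 5804 and 5951 with RSG and 5541, 5955 and 6459 with DMSO (log2 difference -0.00 ± 0.11 SE from the fit, n = 3 each, limma adjusted p = 0.996). Its groups overlapped, as did those of Lpl, the lipoprotein lipase that frees fatty acids for uptake, at 5177, 5512 and 5878 with RSG and 5661, 5827 and 6813 with DMSO. Cox8b and Cidea, genes of brown fat, averaged 2243 and 1347 with RSG and 1961 and 1333 with DMSO. Fibroblast genes were also well measured, with Vim at 5128 with RSG and 5644 with DMSO, but Pdgfrb, the receptor that marks preadipocytes, lay at 101 with RSG and 99.7 with DMSO. The summed signal of the 14 probe sets of preadipocyte and fibroblast markers was 13869 to 16758 with RSG and 15777 to 17916 with DMSO, and none of the 14 was called. The 17 probe sets of adipocyte markers summed to 41954 to 43616 with RSG and 38498 to 44222 with DMSO, with 4 called higher (Cidec, Lipe and 2 of Fabp4) and 1 lower (Pparg). None of the 9 probe sets of brown fat markers tested was called. Over all probe sets tested, 1.05% were called higher and 0.667% lower. Markers of skeletal muscle, bone and cartilage, smooth muscle, macrophages and endothelium had 5 of 18, 5 of 11, 2 of 9, 7 of 12 and 2 of 9 probe sets in the test and no call among them. Fewer cells of a type and less RNA per cell cannot be told apart in such arrays, and their part in the results below was not tested.

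At 4 hrs RSG changed a small set of genes. By limma with Benjamini-Hochberg adjustment, 260 of the 15147 probe sets (1.72%) had an adjusted p under 0.05, of which 159 (1.05%) were higher and 101 (0.667%) lower with RSG. They stood for 128 genes that rose and 83 that fell, and 24 of the 260 had no single gene name. The rises had a median log2 difference of 0.70 and reached 2.61, and the falls had a median of -0.71, against -0.03 over all probe sets tested. A change of 2-fold or more was reached by 38 of the risen and 19 of the fallen probe sets. All RSG arrays lay on 1 side of all DMSO arrays for 155 of the 159 and 90 of the 101, a separation seen upward in 5.42% and downward in 7.74% of all probe sets tested. Without the replicate number as a block, 91 rose and 40 fell. An analysis of variance of the 6 arrays was also run with the study's thresholds, an unadjusted p under 0.05 and a 1.2-fold change. It had the falls as the larger side, with 406 higher and 572 lower, and none either way after Benjamini-Hochberg adjustment. The study's methods do not say which arrays entered its own analysis of variance. Without RSG replicate 1 there were 99 higher and 43 lower, without DMSO replicate 3 there were 99 and 51, and without DMSO replicate 2 there were 132 and 56. Arrays left out in turn below are named by group and number, and a gene's further probe sets are given where they differ in call. Genes taken from the lists or from the largest changes had to have separated groups, so their separation is a condition of choice. Some probe sets with an _x_at or _s_at ending can bind more than 1 transcript.

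**Figure D1:**
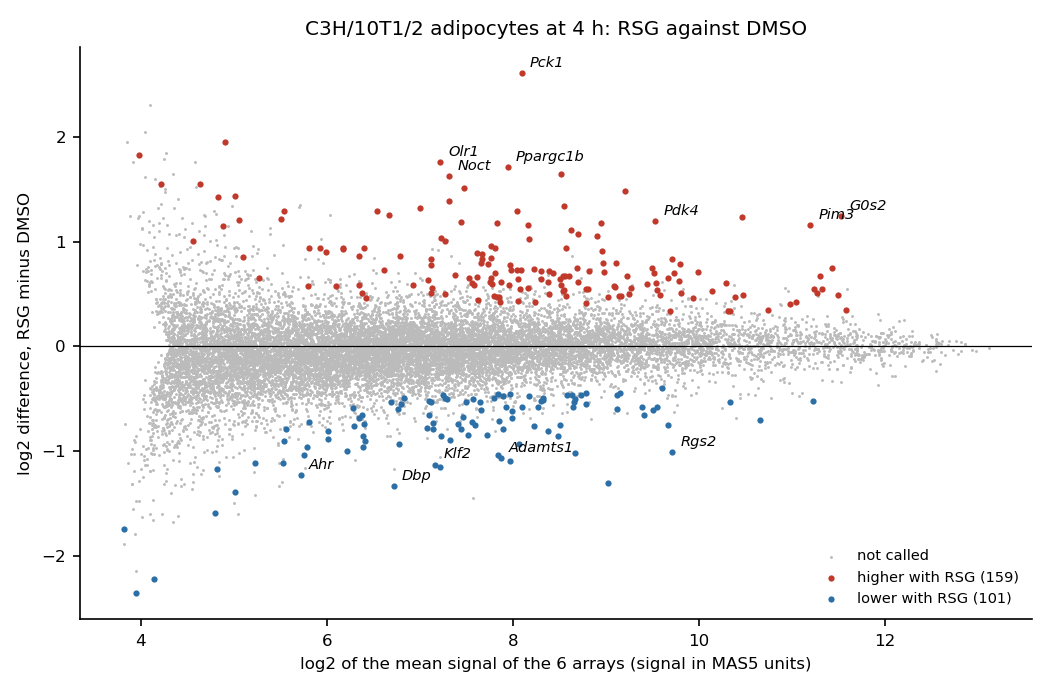
Each point is 1 of 15147 probe sets at 4 hrs, with the log2 of its mean signal over the 6 arrays on the x axis and the log2 difference, RSG minus DMSO, on the y axis. Red points (159) were higher and blue points (101) lower with RSG at an adjusted p under 0.05, gray points were not called, and Pck1 lies highest among the called at 2.61.

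The largest rise was that of Pck1, phosphoenolpyruvate carboxykinase, which in fat cells makes the glycerol backbone of triglycerides from small precursors. Its signal was 566, 438 and 405 with RSG and 67.6, 78.6 and 82.8 with DMSO. The groups were far apart, and the difference was 6.11-fold (log2 2.61 ± 0.15 SE, adjusted p = 1.0e-12). Pck1 kept its call without any 1 of the 6 arrays.

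Genes of lipid droplets and triglyceride assembly rose beside it. Of 34 probe sets in that list, which holds Pck1 too, 6 were higher and 1 lower, against 1.05% and 0.667% of all probe sets. The median log2 difference was 0.12, against -0.03 over all probe sets. G0s2, an inhibitor of the main triglyceride lipase, had 4461, 3887 and 4098 with RSG and 1770, 1601 and 1876 with DMSO (2.37-fold, log2 1.25 ± 0.18, adjusted p = 8.0e-05). The G0s2 groups were far apart, and the call was kept without any 1 array. Gpd1, the cytosolic glycerol phosphate dehydrogenase, gave 3429, 2722 and 2975 with RSG and 1966, 1992 and 2256 with DMSO (1.46-fold, adjusted p = 0.018). Lpin1, the phosphatidate phosphatase lipin, gave 800, 691 and 653 with RSG and 530, 452 and 529 with DMSO (1.42-fold, adjusted p = 0.026). Both lay higher on every RSG array, and a further probe set of Lpin1 also rose (1.47-fold, adjusted p = 0.043). Cidec, a protein through which droplets fuse, had 3722, 3216 and 3206 with RSG and 2599, 2435 and 2174 with DMSO (1.41-fold, adjusted p = 0.042). Plin3, a droplet coat protein found in most cells, was lower at 347, 282 and 336 with RSG and 438, 456 and 433 with DMSO (0.725-fold, adjusted p = 0.046). The milder calls of this list depended on single arrays. Cidec lost its call without each of the 6 (adjusted p 0.072 to 0.23), Gpd1 without RSG 1, 2 or 3 or DMSO 1 (0.051 to 0.14), Lpin1 without every array but RSG 3 (0.052 to 0.18) and Plin3 without RSG 1 or 2 or DMSO 2 or 3 (0.14 to 0.20). Without the replicate block Cidec, Gpd1 and Plin3 were at 0.086, 0.16 and 0.16, and a brighter probe set of Gpd1 was not called in the fit with the block (log2 0.55, adjusted p = 0.055), nor was a dim one (log2 -0.07, adjusted p = 0.942).

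Lipolysis genes were called in the upward direction alone, and their median was the highest of the 20 metabolic and regulatory lists drawn in the plot of gene lists. Of 26 probe sets 24 had a difference above 0, against 6572 of all 15147, and the median was 0.31. Calls were 6 higher and none lower, against 1.05% and 0.667% of all probe sets. The called genes were hormone-sensitive lipase (Lipe), monoglyceride lipase (Mgll), Abhd5, the coactivator protein of the main triglyceride lipase, 2 receptors that restrain lipolysis, Hcar2 and Ffar2, and Angptl4, a secreted inhibitor of lipoprotein lipase. Hcar2, the niacin receptor, had 846, 1190 and 1347 with RSG and 574, 814 and 567 with DMSO (1.72-fold, log2 0.78 ± 0.13, adjusted p = 5.6e-04). Abhd5 had 648, 637 and 663 with RSG and 366, 535 and 426 with DMSO (1.49-fold, adjusted p = 0.0022). The 3 RSG arrays of Abhd5 were close together and above all DMSO arrays. Mgll gave 3379, 2824 and 2506 with RSG and 2242, 1957 and 1881 with DMSO (1.43-fold, adjusted p = 0.0090). Lipe, which cuts diglycerides, gave 2350, 2027 and 2537 with RSG and 1575, 1664 and 1997 with DMSO (1.32-fold, adjusted p = 0.046). Ffar2, a receptor for short fatty acids, gave 924, 761 and 832 with RSG and 494, 648 and 527 with DMSO (1.51-fold, adjusted p = 0.0099). Pnpla2, the triglyceride lipase itself, did not pass, at 4408, 3970 and 4223 with RSG and 3786, 4206 and 3569 with DMSO (log2 0.13 ± 0.12, adjusted p = 0.75). The calls of Hcar2, Abhd5 and the dim Angptl4 probe set were kept without any 1 array. That of Lipe was lost without each of them (adjusted p 0.056 to 0.18) and without the block (0.16), that of Mgll without RSG 1 (0.11) or DMSO 3 (0.067), and that of Ffar2 without RSG 1, DMSO 1 or DMSO 3 (0.063 to 0.099). Second probe sets of Abhd5 (log2 0.37, adjusted p = 0.139) and Ffar2 (0.43, 0.139) and both further ones of Mgll (0.32, 0.052, and 0.45, 0.068) were not called.

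Angptl4 shows how much a call can depend on the probe set. A dim one had 29.1, 27.6 and 17.6 with RSG and 7.1, 6.8 and 6.5 with DMSO, all DMSO values and 1 of the 3 RSG values being under the presence level, so only a bound holds, taken against the presence level, of at least 1.22-fold higher with RSG (adjusted p = 2.2e-04). A bright one had 3379, 3310 and 3094 with RSG and 2683, 2549 and 2853 with DMSO, and its 1.21-fold difference did not pass (adjusted p = 0.155).

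Of 33 probe sets for fatty acid uptake and binding 3 were higher and none lower, against 1.05% and 0.667% of all probe sets. Their median was 0.04. Olr1, an oxidized lipoprotein receptor of the scavenger type, gave 204, 306 and 183 with RSG and 77.5, 61.7 and 61.0 with DMSO (3.39-fold, log2 1.76 ± 0.36, adjusted p = 0.0040). Every RSG array of Olr1 lay above every DMSO array, and the call was kept without any 1 array but not without the block (adjusted p = 0.053). The other 2 probe sets belong to Fabp4, the fatty acid carrier of fat cells, whose 4 probe sets went different ways. The 2 dimmest rose: 716, 831 and 1054 with RSG against 212, 358 and 376 with DMSO (2.80-fold, adjusted p = 1.5e-05), and 369, 633 and 666 with RSG against 131, 198 and 194 with DMSO (3.14-fold, adjusted p = 7.8e-07). The brightest had 5883, 5490 and 5513 with RSG and 6485, 5569 and 6520 with DMSO (log2 -0.13 ± 0.11, adjusted p = 0.71), and the remaining one was not called either (log2 -0.31, adjusted p = 0.435). A single direction for Fabp4 mRNA cannot be read from these probe sets. Cd36, the membrane fatty acid transporter, was higher on every RSG array with all of its 3 probe sets and passed with none, the nearest at 2217, 2571 and 2260 with RSG and 1402, 1895 and 1616 with DMSO (log2 0.53, adjusted p = 0.084).

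Promoter sequence was examined because PPARγ and its partner bind paired copies of the hexamer AGGTCA with 1 base between them. RefSeq windows of 300 bases around annotated start sites (GRCm38.p6) were found for 102 of the 128 risen genes and 66 of the 83 fallen ones. The paired motif, AGGTCA, any 1 base and AGGTCA again, read on both strands, was in none of the 139 windows of risen genes and none of the 94 of fallen genes, against 2 of 9304 windows (0.0215%) of the genes tested. The single hexamer, which the paired motif contains, was in 18 of the 139 (12.9%) and 12 of the 94 (12.8%), against 1193 of the 9304 (12.8%). Its share in the called genes was thus that of the genes tested, and a window of this size leaves out distant sites. The windows of the strongest rise and of Olr1 are shown whole, with the hexamer or its reverse complement TGACCT in capitals. The Pck1 window (chr2:173152823-173153122, + strand) holds none, and the Olr1 window (chr6:129507116-129507415, - strand) holds 1.
Pck1: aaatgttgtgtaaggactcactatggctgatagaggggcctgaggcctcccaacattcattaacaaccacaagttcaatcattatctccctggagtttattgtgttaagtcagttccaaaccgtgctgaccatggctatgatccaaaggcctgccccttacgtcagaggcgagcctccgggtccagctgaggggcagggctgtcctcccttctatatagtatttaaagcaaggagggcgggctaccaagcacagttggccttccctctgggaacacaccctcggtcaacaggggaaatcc
Olr1: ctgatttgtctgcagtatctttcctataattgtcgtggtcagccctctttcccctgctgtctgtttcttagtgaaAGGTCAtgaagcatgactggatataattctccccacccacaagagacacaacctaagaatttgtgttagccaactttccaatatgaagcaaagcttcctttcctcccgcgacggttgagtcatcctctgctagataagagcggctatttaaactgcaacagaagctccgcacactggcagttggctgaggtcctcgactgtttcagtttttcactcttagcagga

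Further hexamers lay in windows of genes described here, of which 5 are given with 12 bases on either side to show that flanking bases differ. The Ucp3 window (chr7) held 2, at chr7:100472830-100472859 and chr7:100472935-100472964, both on the + strand. Pim3 is at chr15:88862011-88862040 (+), Lpin1 at chr12:16611023-16611052 (-) and Pparg, which fell, at chr6:115361104-115361133 (+).
Ucp3: ttaaagagccccAGGTCAcggaagctaaac
Ucp3: gaattaggtttcAGGTCAgctggtgcacag
Pim3: ggagccggagagTGACCTtcctcagcgcgg
Lpin1: ggaagtagcttgAGGTCActtcctgtagtc
Pparg: agccgccgcctcAGGTCAgagtcgccccgg

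**Figure D2:**
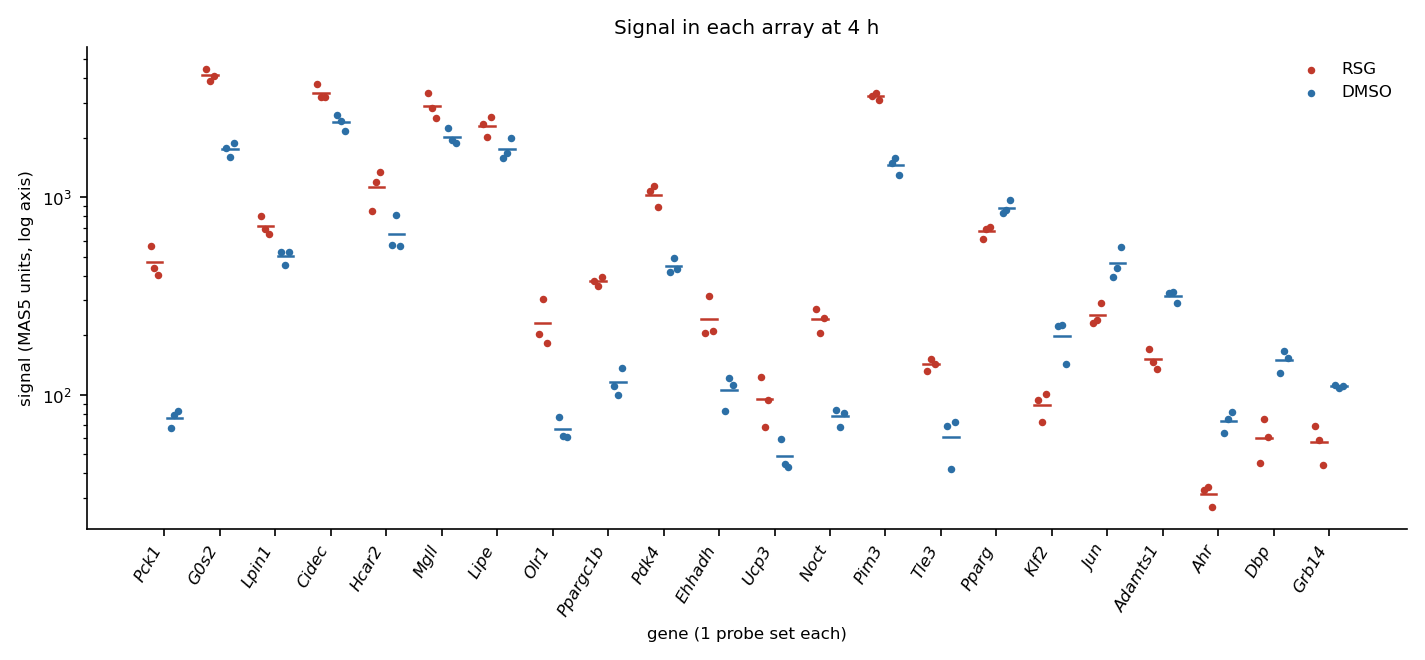
Signal of 1 probe set for each of 22 genes in the 6 arrays at 4 hrs (MAS5 units, log axis), with RSG in red on the left of each pair, DMSO in blue on the right, a point per array and a line at the mean. The 22 were taken from called genes with groups that do not overlap, so the gap was a condition of choice. Pck1 lay at 405 to 566 with RSG and 67.6 to 82.8 with DMSO, and Grb14 at 44.3 to 69.5 with RSG and 107.8 to 112.5 with DMSO.

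Fuel choice genes of the mitochondrion changed at a few points only. Ppargc1b, which encodes the coactivator PGC-1β of mitochondrial and fatty acid oxidation genes, had 376, 356 and 396 with RSG and 111, 99.4 and 137 with DMSO (3.28-fold, log2 1.71 ± 0.23, adjusted p = 1.7e-05). Pdk4, a kinase that shuts the pyruvate dehydrogenase complex, had 1073, 1134 and 887 with RSG and 419, 493 and 432 with DMSO (2.30-fold, log2 1.2 ± 0.16, adjusted p = 1.7e-05). Both were separated by a wide gap, and both calls were kept without any 1 array. Dlat, the acetyl carrier subunit of the complex that Pdk4 shuts, had 1 of its 3 probe sets called, at 238, 251 and 287 with RSG and 163, 188 and 204 with DMSO (1.4-fold, adjusted p = 0.037), and lost the call without every array but RSG 2 (0.064 to 0.16) and without the block (0.18). Ucp3, a mitochondrial carrier of the uncoupling protein family, rose with 1 probe set at 123, 68.3 and 94.1 with RSG and 59.4, 44.6 and 43.2 with DMSO (1.91-fold, adjusted p = 0.0032), a call lost without RSG 1 or DMSO 3 (0.056 for each) and without the block (0.058). Its other probe set was at 117, 99.0 and 105 with RSG and 114, 77.0 and 69.9 with DMSO and did not pass (adjusted p = 0.35).

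Calls in the machinery of oxidation itself were few at 4 hrs, as they were over all probe sets (1.72% in either direction). A difference from that share was not tested. None of 136 probe sets for oxidative phosphorylation and none of 27 for the TCA cycle was called in either direction, with medians of 0.04 and 0.03, and 6 and 2 of them had an unadjusted p under 0.05. In fatty acid oxidation 1 of 53 was called and in mitochondrial protein synthesis, import and folding 2 of 155, against 1.05% of all probe sets. The 2 in protein synthesis and import were Timm8a1, an import chaperone, at 424, 494 and 447 with RSG and 301, 327 and 233 with DMSO (1.60-fold, adjusted p = 0.0052, and 0.088 without DMSO 3, with a further probe set at log2 0.41 and 0.102), and Tomm70a, an import receptor, at 47.2, 46.7 and 48.0 with RSG and 29.9, 31.7 and 28.9 with DMSO (1.57-fold, adjusted p = 0.038), whose call was lost without each array (0.052 to 0.19) and without the block (0.066) and was not made by its 3 other probe sets. Other regulators of oxidation were not called: Ppargc1a had 26.9, 28.8 and 24.3 with RSG and 32.3, 23.4 and 32.6 with DMSO, Esrra 143, 159 and 163 with RSG and 166, 173 and 189 with DMSO, and Ppara 10.7, 49.4 and 39.1 with RSG and 7.7, 35.9 and 11.2 with DMSO. The groups of Ppargc1a and Ppara overlapped, and both lay close to the presence level. Nrip1, the corepressor RIP140, was at 187, 215 and 187 with RSG and 130, 136 and 136 with DMSO, with no overlap, and its 1.47-fold difference did not pass (adjusted p = 0.16, against 0.0065 with the block fitted within each time).

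Peroxisomes, which shorten very long fatty acids, had 5 of 53 probe sets higher and none lower, against 1.05% and 0.667% of all probe sets. The median of the list was 0.11. Ehhadh, their bifunctional oxidation enzyme, also counted in the fatty acid oxidation list, had 205, 316 and 209 with RSG and 82.9, 122 and 112 with DMSO (2.28-fold, log2 1.19 ± 0.17, adjusted p = 8.0e-05). The other called genes make or load the organelle rather than oxidize fat. Pex5, the import receptor, rose with both of its probe sets (1.65-fold, adjusted p = 5.9e-04, and 1.62-fold, 0.0058), the brighter at 385, 367 and 268 with RSG and 176, 254 and 188 with DMSO. Pex16, a membrane assembly factor, gave 1118, 1119 and 923 with RSG and 655, 765 and 534 with DMSO (1.63-fold, adjusted p = 0.0014). Pex13, the docking factor, gave 1512, 1290 and 1530 with RSG and 1065, 1190 and 1167 with DMSO (1.26-fold, adjusted p = 0.048). The first 3 genes kept their calls without any 1 array, and Pex13 lost it without every array but RSG 2 (0.083 to 0.24) and without the block (0.092). Dim further probe sets of Pex13 (log2 0.17, adjusted p = 0.784) and Pex16 (0.24, 0.855) were not called. Ehhadh was not called in the joint fit of both cell lines (0.700), whose estimate of spread also drew on the 3T3-L1 arrays. Its 3T3-L1 signals at 4 hrs were all under the presence level, at 9.0, 3.8 and 9.6 with RSG and 1.8, 1.0 and 0.6 with DMSO.

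**Figure D3:**
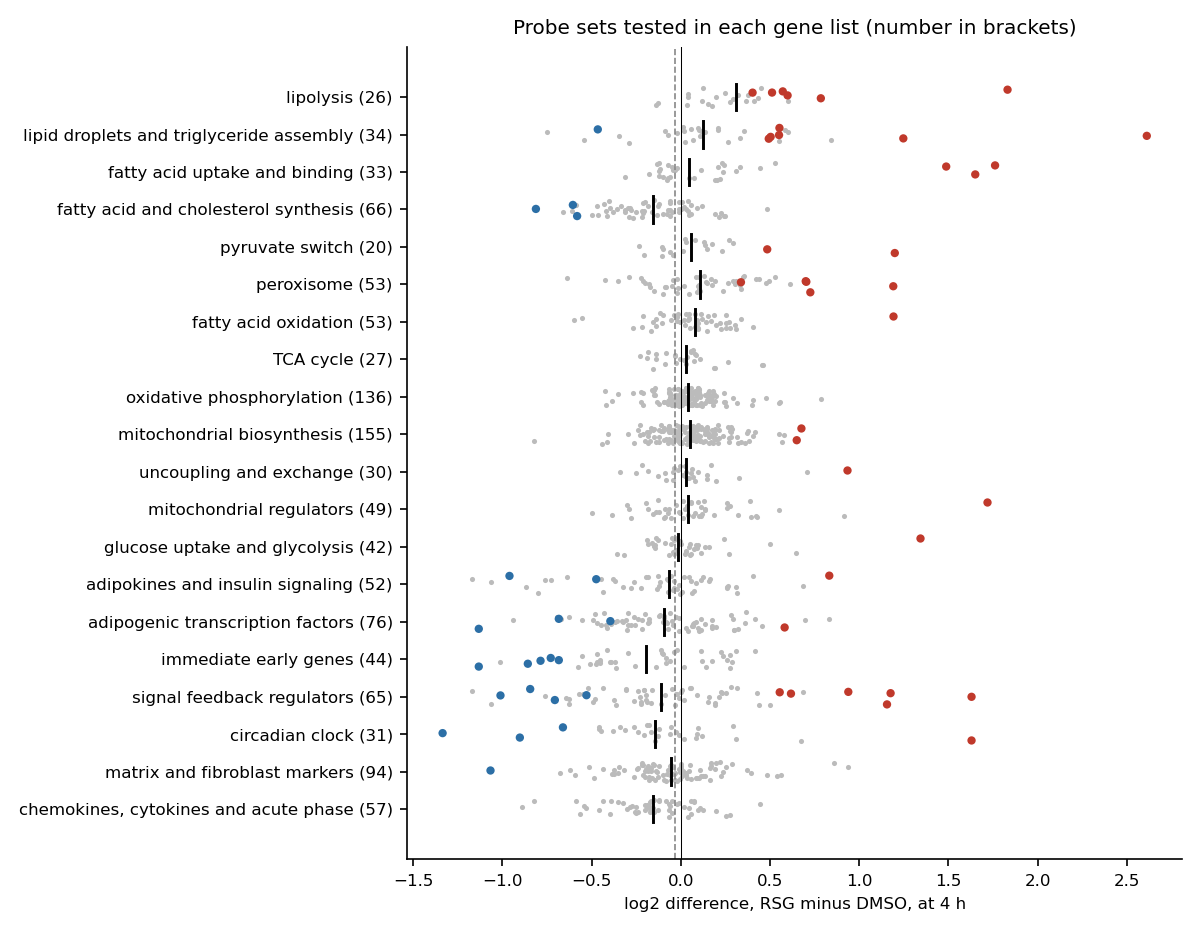
Log2 difference at 4 hrs, RSG minus DMSO, of every probe set tested in 20 gene lists, with red points called higher, blue points called lower and gray points not called. Black bars are list medians and the dashed line is the median of all 15147 probe sets (-0.03). Lipolysis has the median farthest right (0.31) and immediate early genes the one farthest left (-0.20).

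The mRNA of PPARγ itself was called lower. Pparg had 614, 692 and 709 with RSG and 827, 856 and 966 with DMSO (0.761-fold, log2 -0.39 ± 0.11, adjusted p = 0.049). The groups did not overlap, but the call lay at the threshold, was lost without RSG 1, RSG 2, DMSO 1 or DMSO 3 (0.075 to 0.33) and without the block (0.13), and was not made in the joint fit of both cell lines (adjusted p = 0.257). Tle3, a corepressor that also works with PPARγ in fat cells, rose to 131, 152 and 144 with RSG against 69.6, 42.2 and 72.4 with DMSO (2.38-fold, log2 1.25 ± 0.17, adjusted p = 2.7e-05), with another at 1.57-fold that was not called (0.19). A dimmer Tle3 probe set had 56.8, 36.3 and 32.3 with RSG and 14.3, 16 and 15 with DMSO, all DMSO values being under the presence level, and was at least 2.04-fold higher with RSG (adjusted p = 7.2e-04). Among adipogenic transcription factors 1 of 76 probe sets was higher and 3 lower, against 1.05% and 0.667% of all probe sets, with a median of -0.09. The riser was Id3, an inhibitor of helix-loop-helix factors, at 121, 77.5 and 96.4 with RSG and 69.8, 69.4 and 55.4 with DMSO (1.5-fold, adjusted p = 0.033, a call lost without RSG 1 or 3 or DMSO 1 or 3, at 0.13 to 0.19, and without the block, at 0.31). Klf2, which in mice represses Pparg, was at 93.5, 72.6 and 101 with RSG and 223, 226 and 143 with DMSO (0.456-fold, log2 -1.13 ± 0.18, adjusted p = 2.1e-04). The 3 that fell were Pparg, Klf2 and Klf6, of which the last is given with the immediate early genes. Klf2 and Tle3 kept their calls without any 1 array. Cebpa and Fasn, genes of the mature fat cell, were not called (adjusted p = 0.81 and 0.87).

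Immediate early genes, which answer mitogens and stress within minutes, were lower where they were called. Of 44 probe sets 5 fell and none rose, against 0.667% and 1.05% of all probe sets, with a median of -0.20. Jun had 231, 239 and 293 with RSG and 395, 437 and 558 with DMSO (0.552-fold, log2 -0.86 ± 0.15, adjusted p = 6.5e-04). Junb, its partner in the AP-1 factor, had 123, 98.1 and 90.0 with RSG and 178, 194 and 162 with DMSO (0.580-fold, adjusted p = 0.022). Klf6 had 233, 182 and 173 with RSG and 300, 336 and 302 with DMSO (0.623-fold, adjusted p = 0.016), and Klf2 was the fourth of them. The last was Nr4a1, an orphan nuclear receptor, at 114, 100 and 103 with RSG and 143, 178 and 210 with DMSO (0.604-fold, adjusted p = 0.021), named here although it lay outside the rule for named genes. All 5 were lower on every RSG array. Fos and Egr1, the best known of the class, overlapped between groups and were not called (adjusted p = 0.98 and 0.92). The call of Jun was kept without any 1 array, while a second probe set of it lay just outside (log2 -0.51, adjusted p = 0.056). Junb lost its call without every array but DMSO 1 (0.059 to 0.17) and without the block (0.12), and Klf6 without RSG 2 or 3 or DMSO 2 or 3 (0.050 to 0.11), with 2 further probe sets of Klf6 not called (0.11 and 0.25).

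Feedback regulators of signaling split, with 6 probe sets of 65 higher and 4 lower, against 1.05% and 0.667% of all probe sets. Their median was -0.11. Pim3, a serine kinase, was bright and precise, at 3264, 3348 and 3089 with RSG and 1489, 1576 and 1301 with DMSO (2.23-fold, log2 1.16 ± 0.10, adjusted p = 2.1e-08), with another probe set at 2.26-fold (1.1e-05) and another, at the presence level, not called (0.91). Rgs2, which damps signals of G protein coupled receptors, fell with both probe sets, to 546, 573 and 551 with RSG against 1195, 1100 and 1071 with DMSO in the more precise one (0.496-fold, log2 -1.01 ± 0.11, adjusted p = 7.8e-07). Neither gene had overlapping groups in these probe sets. The brighter Rgs2 probe set was at 1035, 1093 and 1582 with RSG and 2023, 1784 and 2151 with DMSO (adjusted p = 0.0022, and 0.16 without the block). Rgs3, of the same family, was at 252, 345 and 401 with RSG and 402, 466 and 559 with DMSO (0.693-fold, adjusted p = 0.0031, 0.053 without RSG 1 and 0.24 without the block), with a dimmer probe set at log2 -0.84 (6.2e-04) and the dimmest, at -0.62, not called (0.154). Its lowest DMSO array lay only just above its highest RSG array. Gadd45g, a growth arrest gene, and Amotl2, a regulator of the Hippo pathway, rose 1.53-fold (adjusted p = 0.030) and 1.92-fold (0.0059), with calls lost for Gadd45g without RSG 1 or 2 or DMSO 1 or 3 (0.062 to 0.17) and without the block (0.18), and for Amotl2 without RSG 1 or DMSO 1 or 3 (0.053 to 0.061). The other risers of the list were Smad6, an inhibitor of BMP signals, named after its value was seen (1.47-fold, adjusted p = 0.0073), and Noct, described with the clock genes.

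Insulin signaling and clock genes had calls both ways, beside 1.05% of all probe sets called higher and 0.667% lower. Irs2, a docking protein of the insulin receptor, had 217, 277 and 285 with RSG and 140, 178 and 122 with DMSO (1.78-fold, adjusted p = 0.011), a call lost without RSG 3 or DMSO 3 (0.055 and 0.14) and without the block (0.086). Grb14, an inhibitor of that receptor, had 69.5, 59.1 and 44.3 with RSG and 113, 108 and 110 with DMSO (0.514-fold, log2 -0.96 ± 0.14, adjusted p = 7.2e-05) and kept the call without any 1 array. These 2 and Sesn1, a stress protein that was lower (0.720-fold, adjusted p = 0.049, lost without RSG 1 or 2 or DMSO 2 or 3 at 0.10 to 0.34 and without the block at 0.11, with 2 further probe sets at log2 -0.64 and -0.80 not called, 0.107 and 0.350), were the 3 calls among 52 probe sets of adipokines and insulin signaling, where Retn, resistin, was not called (adjusted p = 0.87). In the clock list 1 of 31 was higher and 3 lower. Noct, nocturnin, a phosphatase of circadian rhythm that acts in fat cells, was at 273, 206 and 245 with RSG and 84.0, 68.7 and 80.4 with DMSO (3.09-fold, log2 1.63 ± 0.16, adjusted p = 5.9e-08). Dbp, a clock output factor, fell with both probe sets, the first at 45.2, 75.3 and 60.8 with RSG and 129, 167 and 154 with DMSO (0.397-fold, log2 -1.33 ± 0.19, adjusted p = 6.8e-05). Nfil3, which binds the same DNA as Dbp but represses, was at 105, 107 and 104 with RSG and 196, 176 and 135 with DMSO (0.633-fold, adjusted p = 0.012, lost without RSG 1 or DMSO 1 or 2 at 0.075 to 0.091). Noct and Dbp kept their calls without any 1 array. Core clock genes Arntl and Per1 were not called (adjusted p = 0.75 and 0.99).

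Calls among genes of fatty acid and cholesterol synthesis were falls. Of 66 probe sets for fatty acid and cholesterol synthesis none was higher and 3 were lower, against 1.05% and 0.667% of all probe sets. Their median was -0.16. Fdft1, squalene synthase, had 584, 657 and 555 with RSG and 816, 971 and 898 with DMSO (0.669-fold, adjusted p = 0.036). Hsd17b7, an enzyme of cholesterol synthesis, had 185, 293 and 250 with RSG and 330, 481 and 462 with DMSO (0.570-fold, adjusted p = 0.0066). Insig2, which holds back the sterol sensing system, had 569, 562 and 578 with RSG and 821, 690 and 1148 with DMSO (0.658-fold, adjusted p = 0.039). All 3 were lower on every RSG array. Fdft1 lost its call without each array (0.059 to 0.14), Hsd17b7 without RSG 1 or DMSO 2 (0.085 and 0.055) and Insig2 without every array but DMSO 2 (0.064 to 0.37), and without the block Fdft1 and Insig2 were at 0.079 and 0.059. The further probe sets of the 3 genes were also lower with RSG on average and none was called. Hmgcs1, which starts the pathway, had 725, 627 and 557 with RSG and 670, 574 and 511 with DMSO and was not called (adjusted p = 0.79).

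Several of the largest changes lay outside the groups above. Counts of calls in 2 more lists are given with them, beside 1.05% of all probe sets called higher. Pfkfb3, which makes the activator of glycolysis, was the only call among 42 probe sets of glucose uptake and glycolysis, at 408, 645 and 554 with RSG and 142, 232 and 271 with DMSO (2.54-fold, log2 1.34 ± 0.21, adjusted p = 2.4e-04), with a dimmer probe set not called (log2 0.65, 0.147). Cdr2, a cytoplasmic protein known as an autoantigen, had 231, 194 and 120 with RSG and 92.6, 92.3 and 40 with DMSO (2.50-fold, adjusted p = 1.5e-05), and Krt79, a keratin, 488, 364 and 273 with RSG and 165, 183 and 110 with DMSO (2.45-fold, adjusted p = 2.5e-04). All 3 were separated and kept their calls without any 1 array. Abce1, a ribosome recycling factor, rose in 1 probe set, at 240, 265 and 265 with RSG and 70.4, 63.1 and 164 with DMSO (2.85-fold, adjusted p = 0.0055), a call lost without RSG 1 or DMSO 2 (0.053 and 0.090), and its other probe set was at 1.22-fold (0.397). Parm1 was alike. A dim probe set, which reached the presence level on 1 of the 3 DMSO arrays, had 29.5, 34.4 and 43.1 with RSG and 25.4, 9.1 and 7.5 with DMSO (adjusted p = 0.036) and a brighter one was at 1.04-fold (0.949), the first call lost without RSG 2 or 3 or DMSO 2 or 3 (0.064 to 0.25) and without the block (0.13). Chrna2, a nicotinic receptor subunit, had 44.1, 51.1 and 41.5 with RSG and 11.2, 12.2 and 34.2 with DMSO, of which 1 reached the presence level (adjusted p = 0.0067), a call lost without RSG 1 or DMSO 1 or 2 (0.058 to 0.11). Fam126b rose 2.61-fold (0.012), a call lost without RSG 3 or DMSO 2 (0.075 and 0.17), and Eps8, a regulator of actin, 2.45-fold (0.019), a call lost without RSG 1 or 2 or DMSO 3 (0.072 to 0.25) and without the block (0.098). Further probe sets of Eps8 were called once (log2 0.93, 0.0074) and not called once (0.46, 0.234). Fgf10, a growth factor of fat cell precursors, rose 1.80-fold (0.041) with 2 of the 3 DMSO arrays at the presence level, a call lost without RSG 1 or 3 or DMSO 1 or 3 (0.12 to 0.28) and without the block (0.30), and with Angptl4 it made up the 2 calls among 31 probe sets of angiogenic and hypoxia genes.

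Among the largest falls, Adamts1, a secreted protease of the matrix, had 170, 147 and 135 with RSG and 327, 331 and 290 with DMSO (0.476-fold, log2 -1.07 ± 0.13, adjusted p = 2.4e-06). It was the only call among 94 probe sets of matrix and fibroblast genes, against 0.667% of all probe sets called lower. Ahr, the receptor for dioxin and related ligands, had 32.9, 34.1 and 27.1 with RSG and 63.7, 75.7 and 82.0 with DMSO (0.425-fold, adjusted p = 0.0019). Gypc, a membrane skeleton protein first known from red cells, had 93.1, 90.1 and 92.2 with RSG and 173, 225 and 220 with DMSO (0.448-fold, adjusted p = 2.6e-05). Inhbb, the subunit of activin B, had 149, 129 and 171 with RSG and 261, 292 and 371 with DMSO (0.488-fold, adjusted p = 5.7e-04). Trim47, a ubiquitin ligase, and Tmem63a, a membrane channel, fell to 0.523-fold (adjusted p = 2.0e-04) and 0.500-fold (0.0012). These 6 kept their calls without any 1 array. Less firm falls were those of Irs4, a docking protein of receptors (adjusted p = 0.046), Rara, a retinoic acid receptor (0.512-fold, 0.042), Tafa5 (0.460-fold, 0.022), Pidd1 (0.463-fold, 0.040), Twf2, which caps actin (0.487-fold, 0.041), and Ampd2, an AMP deaminase (0.467-fold, 0.0042). Irs4 had 13.3, 26.4 and 6.4 with RSG and 32.7, 49.8 and 38 with DMSO, so that 1 of its RSG arrays reached the presence level, as 2 did for Tafa5, Pidd1 and Twf2. Irs4 lost its call without every array but RSG 2 (0.066 to 0.33), Rara without each array (0.072 to 0.18), Tafa5 without RSG 1 or 2 or DMSO 1 or 2 (0.051 to 0.17), Pidd1 without RSG 3 or any DMSO array (0.068 to 0.37), Twf2 without RSG 1 or 2 or DMSO 1 or 3 (0.072 to 0.34) and Ampd2 without RSG 1 or DMSO 3 (0.10 and 0.056). Without the block the first 5 of these were at 0.066 to 0.18. Second probe sets of Ahr, Ampd2, Inhbb, Tafa5 and Twf2 were not called (0.19 to 0.95).

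For 3 more genes 1 group lay under the presence level on every array. Sucnr1, the succinate receptor, was at 32.9, 24.8 and 36.4 with RSG and 19.3, 16 and 11.9 with DMSO, at least 1.56-fold higher (adjusted p = 0.0032, and 0.053 without RSG 3). Hoxd8, a homeobox factor, was at 3.6, 13.2 and 2.3 with RSG and 22.4, 24.0 and 27.4 with DMSO, at least 1.23-fold lower (adjusted p = 0.049, lost without every array but RSG 2 at 0.097 to 0.31 and without the block at 0.11). Spata6 was at 8.2, 6.0 and 4.6 with RSG and 37.0, 25.4 and 24.5 with DMSO, at least 1.43-fold lower (adjusted p = 0.045, lost without each array at 0.070 to 0.17 and without the block at 0.059), but a second probe set was measured on every array at 0.653-fold and did not pass (0.084).

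Beside oxidative phosphorylation, the TCA cycle and the marker lists without a call, 5 lists had no call at 4 hrs, against 1.72% of all probe sets. They were chemokines and cytokines (57 probe sets, median -0.16), stress of the endoplasmic reticulum and amino acid lack (67, -0.03), antioxidant enzymes (57, -0.06), the cell cycle (61, -0.08) and ribosomal proteins (76, 0.01). An unadjusted p under 0.05 was found for 2, 6, 9, 6 and 2 of them, against 11.7% of all probe sets.

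To place the 4 hr values in time, the same probe sets were read at the other times of the same cells. Calls among the 15147 probe sets numbered 17 (0.112%) at 1 hr, 89 (0.588%) at 2 hrs, 971 (6.41%) at 7 hrs, 2049 (13.5%) at 24 hrs and 1542 (10.2%) at 48 hrs. Of the 159 probe sets higher at 4 hrs, 8 were called higher at 1 hr (0.066% of all probe sets were), 38 at 2 hrs (0.409%), 127 at 7 hrs (3.27%), 76 at 24 hrs (5.77%) and 64 at 48 hrs (4.99%), and 2 were called lower, at 24 hrs. Of the 101 lower at 4 hrs, 4 were called lower at 1 hr (0.0462%), 17 at 2 hrs (0.178%), 73 at 7 hrs (3.14%), 46 at 24 hrs (7.76%) and 43 at 48 hrs (5.19%), and 1 was called higher, at 24 hrs. Times of the same cells share no arrays, but 4 hr calls chose these probe sets, and most of them were also called at 7 hrs. All times also share 1 estimate of spread per probe set, so a low spread favors a call at each time. The overlap between times is therefore not independent.

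The named genes had different courses. Pim3, G0s2 and Pdk4 were already called at 1 hr (log2 1.07, 1.4 and 1.13), as were the falls of Rgs2, in its brighter probe set, and of Adamts1 (-0.99 and -0.71). G0s2 was at 1.45 at 2 hrs, 1.25 at 4 hrs and 0.21 at 7 hrs, where it was not called, while Pdk4 went on to 2.21 at 48 hrs. Pck1 was at 0.16 at 1 hr, 1.48 at 2 hrs, 2.61 at 4 hrs, 2.41 at 7 hrs and 0.43 at 24 hrs, so that 4 and 7 hrs held its highest values. Ppargc1b, Noct, Olr1, Ehhadh, Pfkfb3 and Ucp3 were first called at 2 hrs. Krt79, Timm8a1, Ahr, Grb14 and Dbp were called at 4 and 7 hrs but not at 1 or 2 hrs. Ffar2 passed at 4 hrs alone, with 0.01 at 2 hrs, 0.60 at 4 hrs and 0.02 at 7 hrs. Ppara and Esrra, without a call at 4 hrs, were called at 7 hrs (3.02 and 0.65) and at 24 hrs (3.60 and 0.49). The Ppara values had an SE of 0.58. Cidea, also without a call at 4 hrs, was first called at 24 hrs (1.22) and reached 1.95 at 48 hrs.

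A call at one time and not at another does not show a difference between times, and the difference itself was tested. None of the 15147 probe sets had a 4 hr effect that differed from that at 2 hrs or at 7 hrs by limma (0% called, lowest adjusted p 0.0696 and 0.135), while 809 and 817 had an unadjusted p under 0.05. Nearest against 2 hrs were Gypc, with a log2 difference of effects of -1.18, and Pck1, with 1.13 (adjusted p = 0.070 each), and nearest against 7 hrs was Esrra, at -0.83 (adjusted p = 0.14). For Ffar2 the differences were 0.59 and 0.58 (adjusted p = 0.63 and 0.72). Gypc passed against 2 hrs without RSG 2 hr replicate 3, DMSO 4 hr replicate 1 or RSG 7 hr replicate 2 (adjusted p = 0.028, 0.033 and 0.040) and Pck1 without RSG 4 hr replicate 3 (0.036).

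**Figure D4:**
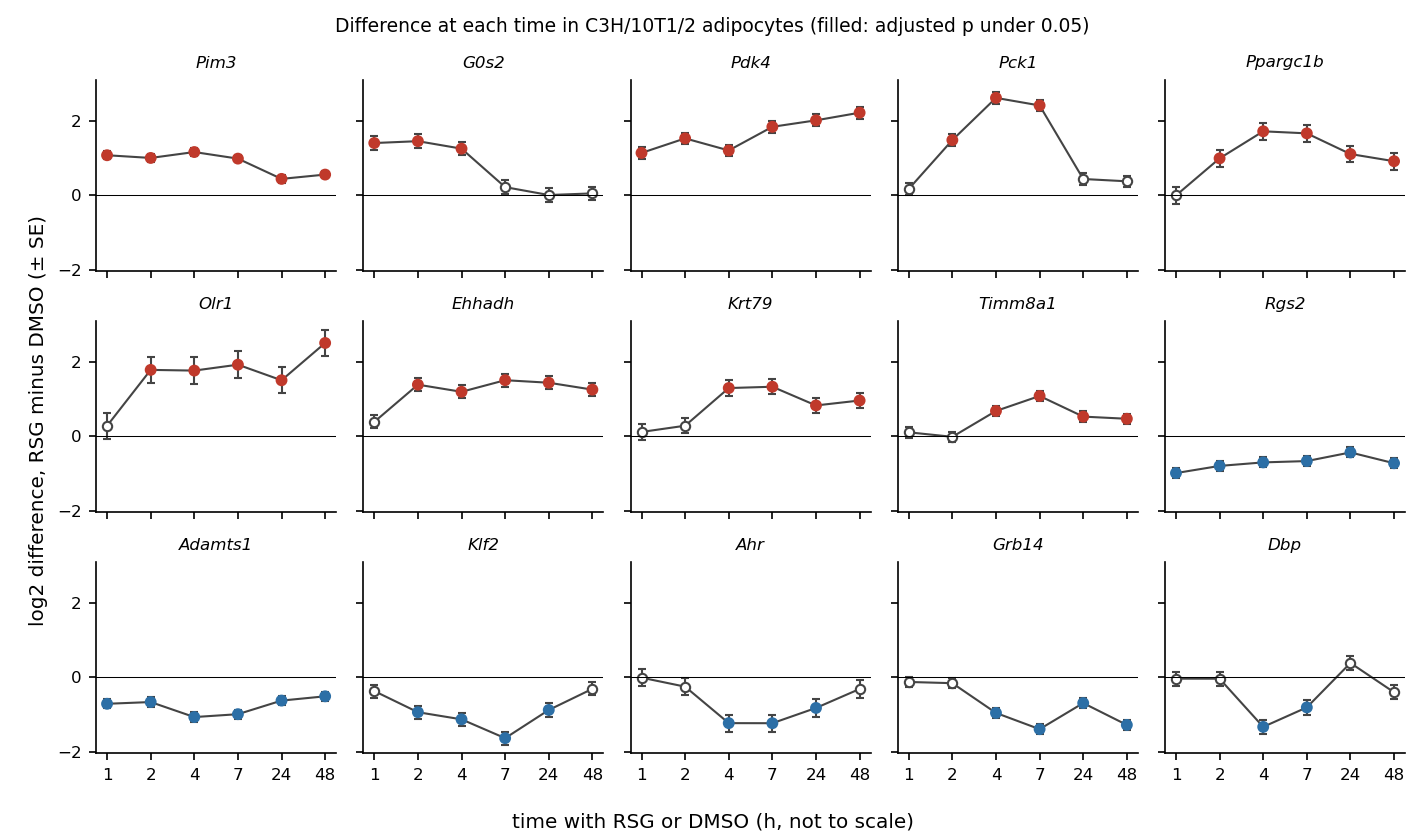
Log2 difference, RSG minus DMSO, with its SE from the fit, of 15 genes at the 6 times from 1 hr to 48 hrs in C3H/10T1/2 adipocytes (3 arrays a group, times not to scale). Filled points passed an adjusted p of 0.05, red for higher and blue for lower. Pim3, G0s2, Pdk4, Rgs2 and Adamts1 are first filled at 1 hr, and Krt79, Timm8a1, Ahr, Grb14 and Dbp at 4 hrs. G0s2, Ahr and Dbp are open again at later times.

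3T3-L1 adipocytes were set beside the C3H/10T1/2 cells at 4 hrs to ask which responses the lines share. In 3T3-L1 cells 225 of 17262 probe sets (1.3%) were called, in a joint fit whose estimate of spread also drew on the C3H/10T1/2 arrays. Of the 159 probe sets that rose in C3H/10T1/2 cells, 155 had the same sign in 3T3-L1 cells and 70 were called higher there, against 0.933% of all. Of the 101 that fell, 90 had the same sign and 16 were called lower, against 0.371% of all, and none of the 260 was called the opposite way. Pck1 averaged 470 with RSG and 76.3 with DMSO in C3H/10T1/2 cells and 225 with RSG and 43.7 with DMSO in 3T3-L1 cells, log2 differences of 2.61 and 2.35. Noct (1.63 and 1.74), Pim3 (1.16 and 1.24), Olr1 (1.76 and 2.13), G0s2 (1.25 and 1.03) and the falls of Adamts1 (-1.07 and -0.93) and Rgs2 (-0.71 and -1.10 in its brighter probe set) were likewise called in both lines.

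One probe set differed between the lines by the test of the difference, 0.00579% of 17262, with 714 at an unadjusted p under 0.05. It belongs to Hmgcs1, the cholesterol pathway enzyme. In C3H/10T1/2 cells its mean was 636 with RSG and 585 with DMSO (log2 0.12), and in 3T3-L1 cells it had 541, 592 and 587 with RSG and 232, 292 and 255 with DMSO (log2 1.15, adjusted p = 6.5e-08). The difference of effects, C3H/10T1/2 minus 3T3-L1, was -1.03 ± 0.20 (adjusted p = 0.048), a call kept in only 1 of the 12 fits that leave out a 4 hr array (0.029 without 3T3-L1 DMSO replicate 2) and lost with no replicate block or no trend, but at 0.0041 with the block within both lines. Its 3 other probe sets had log2 differences of 0.24, 0.03 and 0.04 in C3H/10T1/2 cells and 1.27, 1.12 and 0.90 in 3T3-L1 cells, and none of their differences passed (0.16, 0.36 and 0.51). Next came Pparg, with -0.39 and -1.37 (difference 0.98, adjusted p = 0.11). It passed with the replicate block within both cell lines (0.0041), with signals raised to at least the presence level (0.035), with quantile normalization (0.0035) and without 3T3-L1 DMSO replicate 3 (0.049). Phlda3, not among the genes named by rule, was at 0.49 and 1.14 (difference -0.65, adjusted p = 0.11, and 0.012 with the block within both lines), and Pdk4 at 1.2 and 0.14 (difference 1.06, adjusted p = 0.16). Pdk4 had 159, 107 and 115 with RSG and 117, 101 and 123 with DMSO in 3T3-L1 cells, groups that overlapped, while in C3H/10T1/2 cells they did not. None of these 3 differences passed in the fit as designed, and for Pparg and Phlda3 the call turned on the setting.

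**Figure D5:**
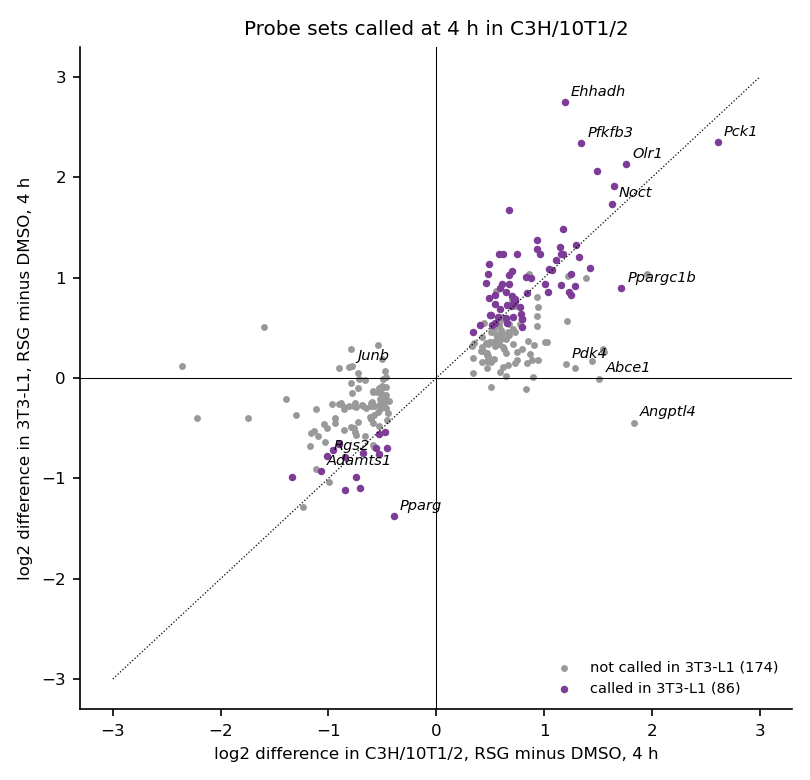
Log2 difference at 4 hrs, RSG minus DMSO, of the 260 probe sets called in C3H/10T1/2 adipocytes, in C3H/10T1/2 on the x axis and in 3T3-L1 adipocytes on the y axis. Purple points (86) were also called in 3T3-L1, gray points were not, and the dotted line marks equal differences. Pck1 and Noct lie near that line, with Pdk4 and Angptl4 below it. Neither Pdk4 nor Angptl4 passed the test of a difference between lines (limma adjusted p = 0.16 and 0.27). All 3T3-L1 signals of this dim Angptl4 probe set at 4 hrs were under the presence level.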

How the data were processed

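RNA of 71 samples was hybridized to 1-color Affymetrix mouse arrays, and the authors computed the deposited intensity of each probe set with MAS5, scaled to a common target. Genes were named from the platform annotation: 20380 of the 22626 probe sets that are not controls had 1 gene, 691 several and 1555 none, and those without a name are not reported by gene. Values of 0 were set to 0.1 before log2. Probe sets were tested where the RSG or DMSO mean at 4 hrs reached 19.9. limma 3.58.1 in R 4.3.3 (lmFit, eBayes with a trend) was fitted to all 36 C3H/10T1/2 arrays with a mean per group and the replicate number as a block, with Benjamini-Hochberg adjustment. Same-numbered RSG and DMSO arrays deviated together at 4 hrs (correlation of deviations 0.158 to 0.219 in 3 of 3 pairs), and the paper's methods give 3 batches of cells. These correlations were taken within a time. Neither the titles nor the methods say that a replicate number marks the same batch at every time, as the block assumes. All 71 arrays entered the cell line comparison, with the block for C3H/10T1/2 arrays only. Replicate numbers were thus not shared between the lines. A separate block within each line would not have shared them either, and with it Hmgcs1, Pparg and Phlda3 passed. Tables were made in Python 3.11.15. Named genes were the 15 largest rises and falls, up to 4 rises and 3 falls in each of 33 lists, and genes the study names. All but the genes the study names had to be called with separated groups. The members and lists were chosen with earlier results of these data known. Columns of no known sample numbered 0. The number of arrays limits the precision. The p-values rest on the spread among arrays of a group after the replicate block, pooled over all arrays of a fit. The 3 batches of the main comparison were of 1 cell line.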

Additional observations from a re-analysis of the deposited data

Results flagged for a closer look

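The effect of RSG on Hmgcs1, the enzyme that starts cholesterol synthesis, differed between the cell lines at 4 hrs by the test of the difference itself. The log2 difference, RSG minus DMSO, was 0.12 in C3H/10T1/2 cells and 1.15 in 3T3-L1 cells, and the C3H/10T1/2 effect minus the 3T3-L1 effect was -1.03 ± 0.20 SE (n = 3 arrays a group, limma adjusted p = 0.048). The call was kept in 1 of the 12 fits that leave out a 4 hr array and was lost with no replicate block and with no trend, and none of the 3 other probe sets of the gene passed. The 3T3-L1 groups did not overlap (541, 592 and 587 with RSG, 232, 292 and 255 with DMSO). The lines had been differentiated by different protocols, so line and protocol cannot be told apart.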

How the results depend on the processing

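The 159 probe sets higher and 101 lower at 4 hrs became 91 and 40 with no replicate block, 63 and 35 from the 6 arrays alone with the block, and 188 and 163 with the block fitted within each time. Over the gene lists, 36 higher and 20 lower became 22 and 10, 19 and 12, and 47 and 38 under the same 3 settings. An ANOVA of log10 signals of the 6 arrays gave 406 and 572 at the methods' thresholds of unadjusted p under 0.05 and 1.2-fold (72 and 59 in the lists). It gave 0 and 0 after Benjamini-Hochberg (0 and 0 in the lists). Leaving out 1 array gave 99 to 132 higher and 43 to 90 lower, and 21 to 36 and 10 to 19 in the lists. The trend, both filters, the floor and quantile normalization kept all 4 counts within 1.5 times. Of 69 named probe sets called, 29 were called without any 1 array and 27 of these also with no replicate block, which lost 29 of the 69.

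Effects at 4 hrs against 2 hrs and 7 hrs gave 0 calls with every setting but single arrays left out, which gave 0 to 2 and 0 to 3. The difference between cell lines gave 1 call, 0 with no replicate block or no trend, 3 with the block in both lines or quantile normalization, 8 with the floor, and 0 to 3 without 1 array. Hmgcs1 and Pparg were each at adjusted p 0.0041 with the block in both lines.

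None of the 260 called probe sets changed sign under the alternatives run. Among named genes not called, whose log2 differences lay near 0, quantile normalization turned Adipoq to 0.0117, Cidea to -0.000472 and Pdgfrb to 0.00249. Without 1 array in turn, Acadsb ran from -0.197 to 0.0221, Acsl5 from -0.0544 to 0.165, Adipoq from -0.0480 to 0.0404, Cidea from -0.0248 to 0.0683, Pdgfrb from -0.323 to 0.151 and Scd1 from -0.0045 to 0.110. Signals near the presence level, as for Hoxd8, Spata6 and Sucnr1, limit what can be measured.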

Other observations

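Some called genes lay outside the lists and the rule for named genes and were chosen after their values were seen, so no theme is tested here. Cavin2, a coat protein of caveolae, the small membrane pits that fat cells hold in large number, had 1602, 2017 and 2339 with RSG and 862, 750 and 904 with DMSO (2.35-fold, limma adjusted p = 1.7e-07), and its second probe set rose as well (2.07-fold, 1.1e-05). Nrp1, a coreceptor for vascular growth factors and semaphorins, rose with 3 probe sets (1.79-fold, 1.78-fold and 1.53-fold, adjusted p = 4.4e-05, 0.0011 and 0.0084). Slc16a1, the lactate and pyruvate transporter MCT1, had 1065, 1094 and 1034 with RSG and 522, 810 and 500 with DMSO (1.79-fold, 7.4e-04). Akap1, which anchors protein kinase A at mitochondria, rose with both probe sets (1.53-fold and 1.64-fold, 0.0031 and 0.010), and Mrap, a partner of the ACTH receptor, rose 1.53-fold (9.5e-04).

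Falls chosen in the same way included the following. Zyx, zyxin, a protein of cell contacts, had 282, 208 and 256 with RSG and 373, 357 and 378 with DMSO (0.668-fold, adjusted p = 0.0029). Rhob, a small GTPase, had 2167, 1911 and 1814 with RSG and 2777, 2962 and 2716 with DMSO (0.695-fold, 0.0042). Add3, adducin, fell with 2 of 3 probe sets (0.636-fold and 0.722-fold, 0.0037 and 0.018) and Svil, supervillin, with both (0.705-fold and 0.696-fold, 0.016 and 0.026). Lasp1 and Cnn3 were called lower with 1 of 9 and 1 of 6 probe sets.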
